A study of Mus musculus with 8 samples.

Results

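The calcium/calmodulin-dependent protein kinases (CaM kinases) are described here as mRNAs recovered with the RNA-binding proteins CPEB4 and CPEB1 from mouse striatum. The genes were taken by name: the 4 isoforms of CaM kinase II (Camk2a, Camk2b, Camk2d and Camk2g), Camk1, Camk1d, Camk4, the upstream kinases Camkk1 and Camkk2, and Camkv, with all of their probe sets on the array. Of these 10 genes, 9 had a probe set in the platform annotation, with 27 probe sets among the 45101 on the array, 13 of them for Camk2 isoforms and 14 for the other kinases. Camkk1 had no named probe set and was not measured. Probe sets numbered 6 for Camk2a, 4 each for Camk2d, Camk4 and Camkk2, 3 for Camk1d, 2 each for Camk2g and Camk1, and 1 each for Camk2b and Camkv.

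When calcium enters a neuron it binds calmodulin, and the calcium-calmodulin complex switches these kinases on. CaM kinase II is a multimeric kinase that is very abundant at excitatory synapses, where its alpha and beta isoforms are needed for lasting changes of synaptic strength, while CaM kinases I and IV work downstream of the CaM kinase kinases and act on actin, axon growth and transcription through CREB. CPEB proteins bind cytoplasmic polyadenylation elements in the 3′ untranslated regions of mRNAs and regulate poly(A) tail length and translation, and the Camk2a mRNA, which is carried into dendrites, is a long-known CPEB1 target in rodent neurons.

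RNA immunoprecipitation (RIP) recovers, through an antibody, a protein together with its crosslinked RNA. Striatum was taken from HD and WT male mice aged 7 to 8 months, with 4 mice stated in the design text, and was combined by genotype into a pool each; the labels neither spell out HD nor name the mouse line. From each pool came 4 fractions: RNA precipitated with anti-CPEB4, with anti-CPEB1 or with rabbit IgG, the control for RNA that sticks without a specific antibody, and input, the cleared lysate before precipitation. All fractions shared the formaldehyde crosslink and an amplification of 27 cycles, and each was read on 1 array, 8 arrays in all, so no group has a replicate. Values are log2 intensities. In the comparisons of fractions the HD pool and the WT pool stand in for replicates, as a block in a limma fit over all 8 arrays, and errors are standard errors (SE) from it. A gene is represented by its probe set of highest mean; 11345 of 17097 genes, all 9 measured CaM kinases among them, had a mean above 4.23, the median over all probe sets, and were tested. A second fit tested all 28898 probe sets with 1 gene symbol, at any level; it held all 27 CaM kinase probe sets, of which 20 lay above 4.23. A gene counts as called at a Benjamini-Hochberg adjusted p under 0.05 over all genes tested.

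The arrays differed in ways that touch every comparison below. Array medians lay between 4.03 and 4.28, but the number of tested genes above a log2 value of 8 was 1553 and 1810 in CPEB4 RIP of the HD and WT pools, 866 and 1607 in CPEB1 RIP, 648 and 924 in IgG RIP, and 1160 and 770 in input. Of 9 medium spiny neuron markers 7 had a probe set; 6 of these lay above 4.23 on every array except CPEB1 RIP of the HD pool, where Drd2 was below it, and Tac1 lay below it on all 8. Of the 8 markers of cortical excitatory neurons, cells of neighbouring tissue that also hold much Camk2a, 7 were measured: Slc17a7, Rorb, Cux2 and Emx1 lay above 4.23 on every array, with Slc17a7 at up to 8.09 in CPEB4 RIP of the WT pool, and Neurod6 and Tbr1 lay below it on every array.

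Camkk2, the kinase that phosphorylates and activates CaM kinases I and IV and AMPK, was the CaM kinase gene called in CPEB4 RIP against IgG RIP. Its values were 9.02 in the HD pool and 10.25 in the WT pool for CPEB4 RIP, 8.49 and 9.52 for CPEB1 RIP, 5.60 and 7.67 for IgG RIP, and 7.67 and 7.87 for input. On its best probe set, both CPEB4 arrays and both CPEB1 arrays lay above both IgG arrays and both input arrays, with no overlap. CPEB4 RIP exceeded IgG RIP by 3.0 ± 0.47 on the log2 scale (8.00-fold; adjusted p = 0.0492 by limma), with 3.42 in the HD pool and 2.58 in the WT pool, more than 97.6% of the genes tested. The 1 call among 9 genes stands beside 2.33% of all genes called higher; none was called lower, against 0.0441%. The call sits at the threshold and was lost in all 13 other ways of processing or fitting. In these the log2 difference ran from 2.13 to 3.63, and the adjusted p by limma was 0.0525 or more. In the fit of the arrays of both fractions alone no gene at all was called, so the loss there is not particular to Camkk2. The same holds for the fits without 1 array, which leave 1 array in a group.

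The 3 other Camkk2 probe sets gave the same order against IgG. Probe set 1455401_PM_at read 6.44 in the HD pool and 8.22 in the WT pool of CPEB4 RIP, against 3.75 and 4.34 in IgG RIP, a log2 difference of 3.29 ± 0.80 (adjusted p = 0.133 by limma over all 28898 probe sets with 1 gene symbol). Probe set 1424476_PM_at differed by 2.79 ± 1.05 and 1424475_PM_at by 1.41 ± 0.38. On all 4 Camkk2 probe sets both CPEB4 arrays lay above both IgG arrays and both input arrays. Both CPEB1 arrays lay above both IgG arrays on all 4 as well. On the 3 other probe sets, however, CPEB1 RIP overlapped with input.

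Marker lists of several cell types also differed between CPEB4 RIP and IgG RIP. The median of the medium spiny neuron markers was 8.69 in the HD pool and 10.09 in the WT pool of CPEB4 RIP, against 7.34 and 9.85 in IgG RIP. That of the 5 measured oligodendrocyte markers was 9.31 and 8.25 in CPEB4 RIP, against 6.19 and 9.14 in IgG RIP, and that of the 7 astrocyte markers was 7.73 and 7.27, against 6.12 and 6.50. The spiny neuron and astrocyte medians were thus higher in CPEB4 RIP in both pools, and the oligodendrocyte median in the HD pool alone. The summed astrocyte level of the WT pool was lower in CPEB4 RIP, at 11.70 against 11.90. Medians of striatal interneurons and cortical excitatory neurons were higher in CPEB4 RIP in both pools, and that of microglia in the WT pool alone. The endothelial median was lower in both, at 4.76 and 4.55 against 5.06 and 4.94, as was that of choroid plexus and ependyma. CPEB4 RIP and IgG RIP of a pool came from the same tissue. The part of these markers in the Camkk2 difference, and that of the larger number of bright genes on the CPEB4 arrays, was not tested.

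**Figure D1:**
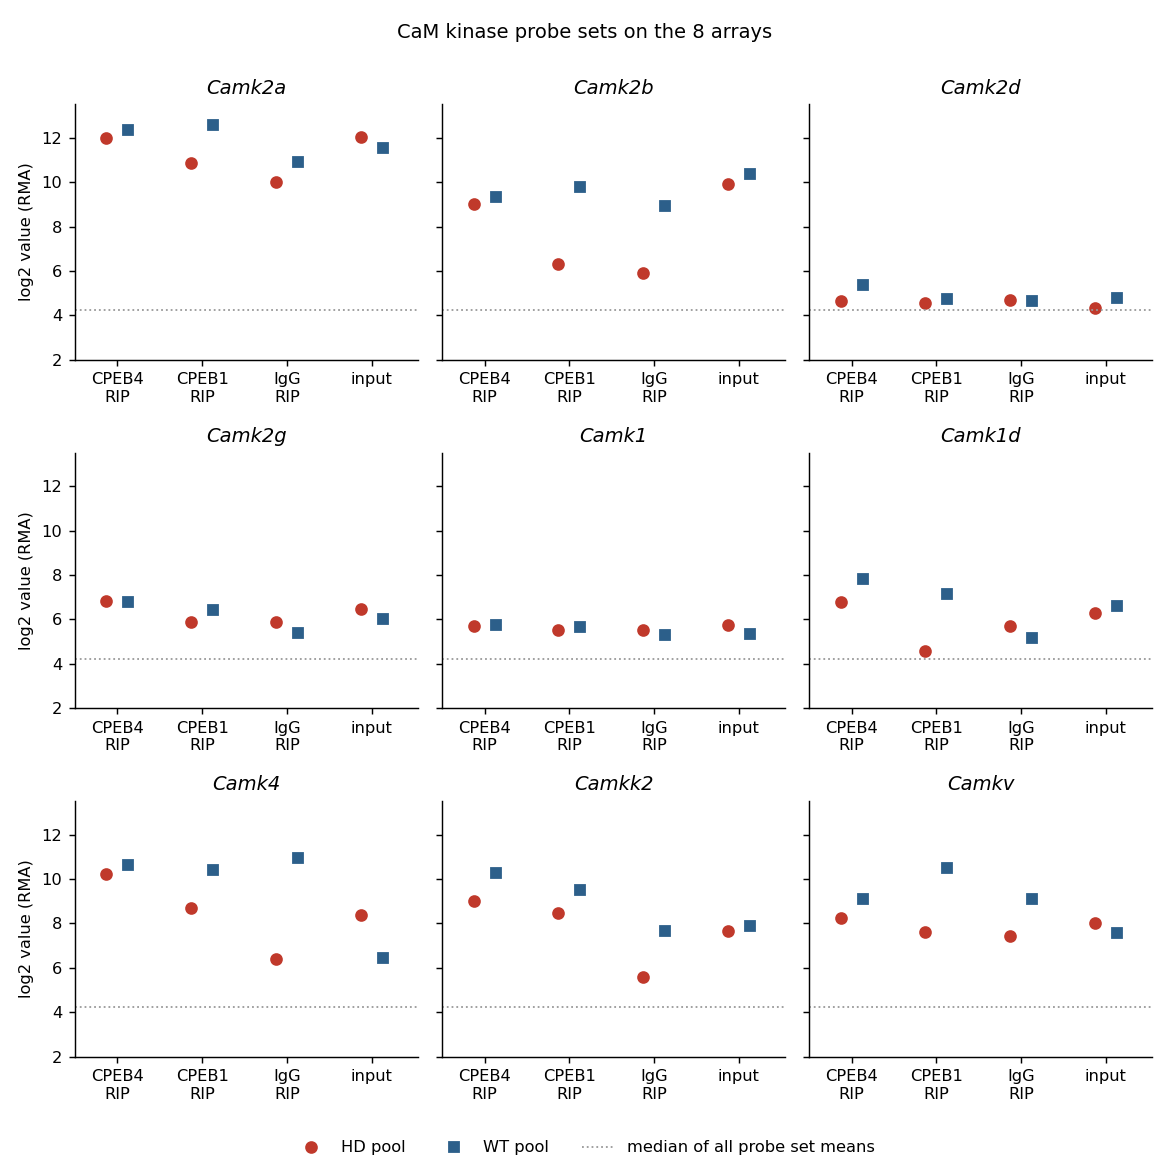
Log2 value of the representing probe set of each measured CaM kinase gene (y axis) in CPEB4 RIP, CPEB1 RIP, IgG RIP and input (x axis), with the HD pool as circles, the WT pool as squares and 1 array per point; the dotted line is the median of all probe set means, 4.23. For Camkk2 the CPEB4 arrays (9.02 and 10.25) lie above the IgG arrays (5.60 and 7.67), while for Camk4 the IgG array of the WT pool, at 10.97, is the highest of the 8.

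None of the Camk2 isoforms passed the test against IgG. Camk2a, the alpha subunit of CaM kinase II, read 11.99 in the HD pool and 12.36 in the WT pool of CPEB4 RIP, 10.85 and 12.56 in CPEB1 RIP, 9.99 and 10.91 in IgG RIP, and 12.04 and 11.52 in input. Both CPEB4 arrays lay above both IgG arrays, and on this best probe set CPEB4 RIP overlapped with input. The difference from IgG was 1.72 ± 0.55 (adjusted p = 0.168 by limma), and it turned to -0.14 when the arrays were rescaled by cyclic loess.

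The probe sets of Camk2a divided by their level. The 4 brightest, with means from 6.84 to 11.53, had log2 differences of 1.70 to 2.58 between CPEB4 RIP and IgG RIP, with both CPEB4 arrays above both IgG arrays in each. Probe sets 1441734_PM_at and 1443876_PM_at, with means of 4.82 and 3.70, differed by -0.52 and -0.31, with both CPEB4 arrays below both IgG arrays. No adjusted p of the 6 was under 0.164 (limma, all probe sets). Against input, both CPEB4 arrays lay above both input arrays on 1452453_PM_a_at and 1457311_PM_at, and overlapped with input on the remaining Camk2a probe sets.

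Camk2b, the beta subunit that anchors the kinase to actin, read 9.0 in the HD pool and 9.33 in the WT pool of CPEB4 RIP, against 5.90 and 8.91 in IgG RIP. The groups did not overlap, but the difference was 3.10 in the HD pool and 0.42 in the WT pool, and the fitted 1.76 ± 0.92 did not pass (adjusted p = 0.296 by limma). Most of that spread lay in IgG RIP, where the HD array was 3.01 lower than the WT array.

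Camk2g, the gamma subunit, which can shuttle calmodulin to the nucleus, gave the closest agreement between pools among the Camk2 isoforms for CPEB4 RIP against IgG RIP, with 0.90 in the HD pool and 1.36 in the WT pool; for CPEB1 RIP against IgG RIP its pools had opposite signs. Its probe set of highest mean read 6.81 in the HD pool and 6.76 in the WT pool of CPEB4 RIP, 5.87 and 6.40 in CPEB1 RIP, 5.90 and 5.41 in IgG RIP, and 6.45 and 6.04 in input. Both CPEB4 arrays were higher than all 6 other arrays, and the difference from IgG was 1.13 ± 0.34 (adjusted p = 0.156 by limma).

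The other Camk2g probe set, 1423941_PM_at, showed a wider gap. It read 6.99 in the HD pool and 7.00 in the WT pool of CPEB4 RIP, 4.43 and 4.66 in CPEB1 RIP, 3.77 and 4.47 in IgG RIP, and 7.14 and 6.14 in input. CPEB4 RIP and input were at a like level, and both stood clear of CPEB1 RIP and IgG RIP. The difference of CPEB4 RIP from IgG RIP was 2.88 ± 0.43 (adjusted p = 0.0550 over 28898 probe sets by limma). With only the 16152 probe sets above 4.23 in the fit it became 2.88 ± 0.45 (adjusted p = 0.0422), and Camkk2's probe set 1424474_PM_a_at then passed as well (adjusted p = 0.0431, against 0.0578 over all probe sets).

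Camk2d, the delta subunit, was the dimmest of the 9 measured genes on its best probe set, with a mean of 4.72. Its best probe set had 4.66 in the HD pool and 5.35 in the WT pool of CPEB4 RIP, against 4.69 and 4.67 in IgG RIP, and the groups overlapped. The difference was 0.32 ± 0.29 (adjusted p = 0.487 by limma). The other 3 Camk2d probe sets had means from 3.16 to 3.50, below 4.23.

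Among the CaM kinases I, Camk1d, a kinase of dendrite growth and of immune cells, stood highest in CPEB4 RIP of the WT pool. It read 6.80 in the HD pool and 7.84 in the WT pool of CPEB4 RIP, 4.59 and 7.14 in CPEB1 RIP, 5.68 and 5.15 in IgG RIP, and 6.31 and 6.62 in input. Both CPEB4 arrays lay above both IgG and both input arrays, while CPEB1 RIP of the HD pool was the lowest of the 8. CPEB4 RIP differed from IgG RIP by 1.90 ± 0.74 (adjusted p = 0.212 by limma).

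A dimmer Camk1d probe set, 1452050_PM_at, gave CPEB4 values of 5.13 in the HD pool and 6.40 in the WT pool, against 3.60 and 4.33 in IgG RIP and 3.74 and 3.77 in input. Both CPEB4 arrays were above the other 6, with differences of 1.80 ± 0.35 from IgG RIP (adjusted p = 0.0946) and 2.01 ± 0.35 from input (adjusted p = 0.0739; limma, all probe sets). The third, 1438643_PM_at, went the other way, at -1.37 ± 0.54, on values of 2.87 and 3.11 in CPEB4 RIP against 3.32 and 5.40 in IgG RIP.

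Camk1, the founding CaM kinase I, lay within a narrow range on its best probe set, from 5.31 to 5.74 over the 8 arrays. CPEB4 RIP had 5.70 in the HD pool and 5.73 in the WT pool, against 5.50 and 5.31 in IgG RIP, without overlap, and the difference was 0.31 ± 0.27 (adjusted p = 0.472 by limma). On probe set 1417604_PM_at, CPEB4 RIP of the HD pool read 6.89 and the other 7 arrays lay between 3.63 and 4.18, so that 1 array carries the 1.38 ± 0.93 fitted there.

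Camk4, a mostly nuclear kinase that phosphorylates CREB, was set apart by its background. It read 10.23 in the HD pool and 10.64 in the WT pool of CPEB4 RIP, 8.70 and 10.39 in CPEB1 RIP, 6.41 and 10.97 in IgG RIP, and 8.38 and 6.45 in input. The IgG array of the WT pool was the highest and that of the HD pool the lowest. CPEB4 RIP differed from IgG RIP by 3.82 in the HD pool and -0.32 in the WT pool, and the fit gave 1.75 ± 1.46 (adjusted p = 0.462 by limma), which became -0.50 without the IgG array of the HD pool.

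The other Camk4 probe sets shared part of this pattern. Probe set 1426167_PM_a_at read 7.51 in the HD pool and 10.70 in the WT pool of IgG RIP, and 1439843_PM_at read 3.97 and 8.83. On both, IgG RIP of the HD pool was well below that of the WT pool. The dimmest, 1441974_PM_at, had 3.74 and 3.54 in IgG RIP against 4.41 and 5.47 in CPEB4 RIP, a difference of 1.30 ± 0.38 (adjusted p = 0.170; limma, all probe sets).

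Camkv, a CaM kinase-like protein without kinase activity that is found at dendritic spines, read 8.22 in the HD pool and 9.11 in the WT pool of CPEB4 RIP, 7.63 and 10.48 in CPEB1 RIP, 7.45 and 9.09 in IgG RIP, and 8.02 and 7.58 in input. CPEB4 RIP and IgG RIP overlapped. The difference was 0.40 ± 0.77 (adjusted p = 0.745 by limma), and it turned to -0.53 under cyclic loess and -0.66 under quantile normalization.

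Counted together, 6 of the 9 genes had both CPEB4 arrays above both IgG arrays, against 29.3% of all genes tested, and 7 of 9 were higher in both pools, against 33.8%. At an unadjusted p under 0.05, 4 genes (Camk2a, Camk2g, Camk1d and Camkk2) were higher and none lower, against 15.7% and 7.2% of all genes. At the level of probe sets, 0 of 27 passed the adjusted test (1.86% of all probe sets were called higher), 10 were higher at an unadjusted p under 0.05 (11.9%), 15 lay wholly above IgG (23.1%) and 5 wholly below (40.6%). All of the wholly lower probe sets belong to Camk2a, Camk2d or Camk1d, genes whose best probe set was not lower.

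**Figure D2:**
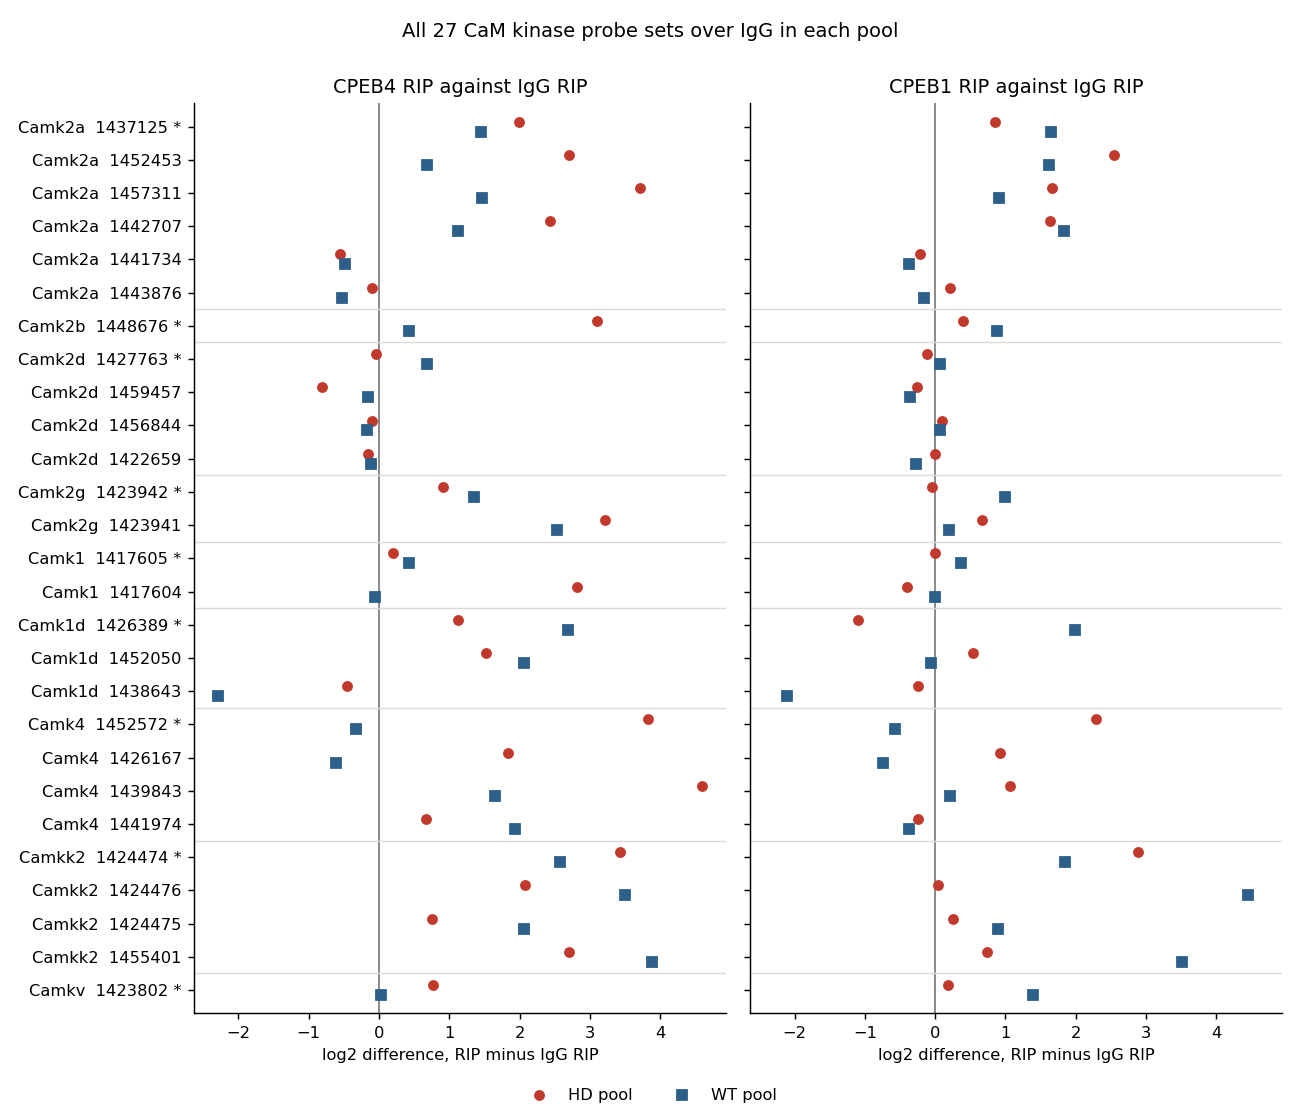
Log2 difference from IgG RIP (x axis) of all 27 CaM kinase probe sets (y axis, asterisk for the one that represents its gene) for CPEB4 RIP on the left and CPEB1 RIP on the right, with the HD pool as circles and the WT pool as squares. The 4 Camkk2 probe sets lie right of 0 in both pools for CPEB4, from 0.75 to 3.88, and Camk4 1452572 shows 3.82 in the HD pool and -0.32 in the WT pool.

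Against IgG, no CaM kinase gene was called in CPEB1 RIP, where 0% of all genes were called in either direction by limma. Camkk2 again had the largest difference, 2.36 ± 0.47 (unadjusted p = 0.00350, adjusted p = 0.270), with 2.88 in the HD pool and 1.84 in the WT pool. It was the single member at an unadjusted p under 0.05, against 6.37% of all genes higher at that level. Camk2a, the reported CPEB1 target, followed at 1.25 ± 0.55 (adjusted p = 0.726), and its CPEB1 array of the HD pool, 10.85, lay below the IgG array of the WT pool, 10.91.

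The remaining 7 genes had CPEB1 differences from IgG between -0.025 for Camk2d and 0.86 for Camk4. Camk1d differed by -1.10 in the HD pool and 1.99 in the WT pool, and Camk4 by 2.29 and -0.57, so the pools had opposite signs for both. In all, 5 of 9 genes were higher in both pools (35.8% of all genes), and Camkk2 and Camk1 had no overlap with IgG, 2 of 9 against 24.6%. Of the 27 probe sets, 3 (2 of Camkk2 and 1452453_PM_a_at of Camk2a, at 2.08 ± 0.77) were higher at an unadjusted p under 0.05, against 4.12% of all probe sets. On Camkk2 probe set 1424476_PM_at the CPEB1 array read 4.66 in the HD pool and 9.02 in the WT pool, against 4.63 and 4.58 in IgG RIP. The comparisons of CPEB4 RIP and CPEB1 RIP with IgG share both IgG arrays, so a low value on either raises both comparisons.

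Set directly against each other, CPEB4 RIP and CPEB1 RIP share no array, and no CaM kinase gene was called (0.141% of all genes were called higher in CPEB4 RIP and 0% lower by limma), nor did one reach an unadjusted p under 0.05 as higher (9.41% did). Camk2g and Camk1 had both CPEB4 arrays above both CPEB1 arrays, 2 of 9 against 18.6%, and 6 of 9 genes were higher in both pools, against 25%. Camk1d had the largest difference, 1.46 ± 0.74, followed by Camk2b with 1.12 ± 0.92 and Camk4 with 0.89 ± 1.46, with adjusted p from 0.366 to 0.734 by limma. Camkk2 differed by 0.64 ± 0.47 (adjusted p = 0.474), a gap that these arrays cannot tell from 0 and that does not show equal recovery by both antibodies. Camkv had the one negative difference, -0.39 ± 0.77.

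On Camk2g probe set 1423941_PM_at, CPEB4 RIP exceeded CPEB1 RIP by 2.56 in the HD pool and 2.34 in the WT pool. Of the 27 probe sets none was called higher (0.713% of all probe sets were), and 3, of Camk2g, Camk1d and Camk4, were higher at an unadjusted p under 0.05 (8.36%). The fitted Camk2g difference of 2.45 ± 0.43 (unadjusted p = 0.00238) had an adjusted p of 0.107 over all probe sets by limma. The same probe set was lower in CPEB1 RIP than in input, by -2.09 ± 0.43 (adjusted p = 0.414), and lower in IgG RIP than in input, by -2.52 ± 0.43 (adjusted p = 0.334).

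Against input, again, no CaM kinase gene was called in any precipitate. In CPEB4 RIP, where 1.34% of all genes were called higher and 0.0176% lower, Camk4 had 3.02 ± 1.46 (adjusted p = 0.242 by limma) and Camkk2 1.87 ± 0.47 (unadjusted p = 0.00963, adjusted p = 0.112), the single member at an unadjusted p under 0.05 (13.2% of all genes were higher at that level). Camk2g, Camk1d, Camk4, Camkk2 and Camkv had both CPEB4 arrays above both input arrays, 5 of 9 against 25.7%. Camk2b had both below, at -0.97 ± 0.92, 1 of 9 against 39.1%.

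In CPEB1 RIP, Camk2b was lower than input by -2.09 ± 0.92 and Camkk2 higher by 1.23 ± 0.47 (adjusted p = 0.676 and 0.60 by limma; 0.0176% of all genes were called higher and 0% lower). Camkk2 alone was at an unadjusted p under 0.05 there (0.0451), against 5.42% of all genes. In IgG RIP, Camk2b was -2.73 ± 0.92 from input (unadjusted p = 0.0290, a level at which 6.6% of all genes were lower; adjusted p = 0.474), the lowest among the CaM kinases, where 0.0176% of all genes were called higher and 0.00881% lower. Camk2b thus read lower than both input arrays on all 6 arrays of precipitates, and 4 of 9 genes (Camk2a, Camk2b, Camk2g and Camk1d) lay wholly below input in IgG RIP, against 30% of all genes. The 3 comparisons share the input arrays.

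**Figure D3:**
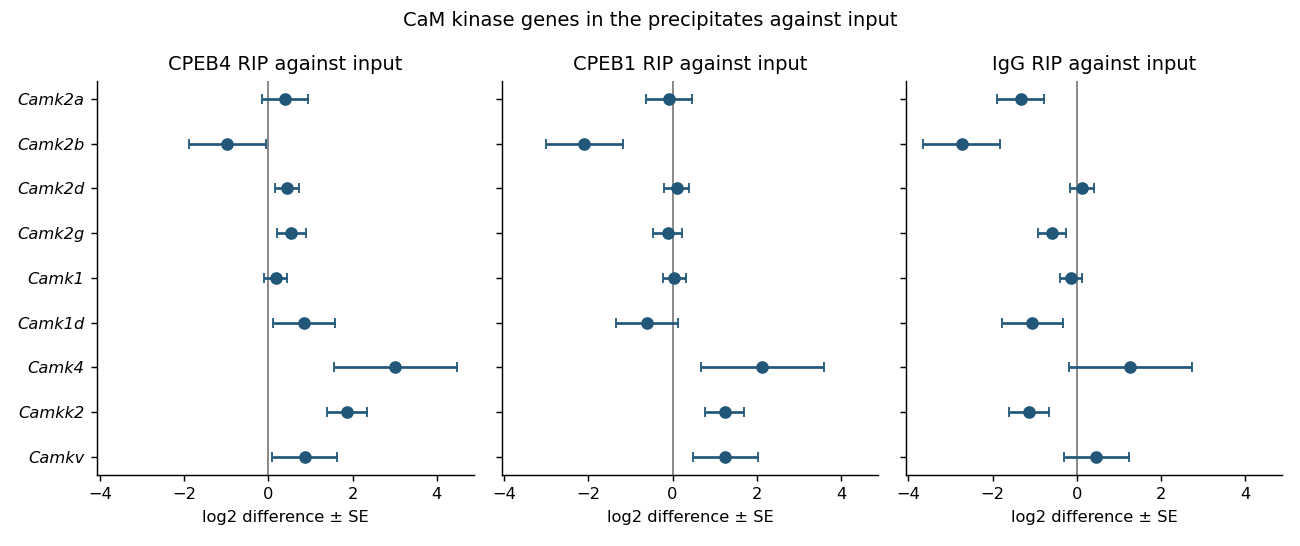
Log2 difference from input with its SE (x axis) of the 9 measured CaM kinase genes (y axis) in CPEB4 RIP, CPEB1 RIP and IgG RIP, from the limma fit over 8 arrays. Camk2b lies left of 0 in all 3 panels (-0.97, -2.09 and -2.73), and Camkk2 lies at 1.87, 1.23 and -1.13.

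The differences of the Camk2 isoforms from IgG overlapped with those of the other CaM kinases for both antibodies. The median fitted difference of CPEB4 RIP from IgG RIP was 1.43 over the 4 Camk2 genes and 1.75 over the 5 others, against -0.065 over all genes tested. Over all 9 genes it was 1.72, and it became 0.64 under cyclic loess, 0.97 under quantile normalization, 0.97 without the IgG array of the HD pool and 0.99 without that of the WT pool. Taken by pool the order turned, with medians of 1.45 for Camk2 and 1.12 for the others in the HD pool, and 1.02 and 0.42 in the WT pool. For CPEB1 RIP the fitted medians were 0.56 and 0.79, against 0.093 over all genes. Relative to input the Camk2 isoforms had the lower medians, 0.42 against 0.86 in CPEB4 RIP, -0.094 against 1.23 in CPEB1 RIP and -0.96 against -0.14 in IgG RIP. These are medians of few genes and were not tested.

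HD and WT were compared within each fraction from 1 array each, so the differences are values without a test, and genes are counted at 2-fold. In CPEB1 RIP all 9 CaM kinase genes were lower in the HD pool than in the WT pool, against 49.7% of all genes, and 6 of the 9 were lower by 2-fold or more, against 17.9% of all genes. Camk2b read 6.30 in the HD pool and 9.79 in the WT pool, 11.2-fold lower in HD, Camkv 7.63 and 10.48, and Camk1d 4.59 and 7.14. Camk2a, Camk4 and Camkk2 differed by -1.71, -1.70 and -1.03. The other 3, Camk2d, Camk2g and Camk1, differed by -0.16 to -0.54.

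IgG RIP, which carries no CPEB antibody, showed large gaps for several of the same genes. Camk4 differed by -4.56, Camk2b by -3.01, Camkk2 by -2.07 and Camkv by -1.64 between the HD and WT pools, 4 of 9 genes at 2-fold lower against 10% of all genes. The list depends on the probe set taken. The other Camkk2 probe sets differed by -0.23, 0.053 and -0.59. Camk2a differed by -0.91 on its best probe set, but by -2.09, -2.46 and -2.17 on 1452453_PM_a_at, 1457311_PM_at and 1442707_PM_at. Its dimmest probe sets differed by 0.42 and -0.10. At any size, 5 of 9 genes were lower in HD in IgG RIP, against 44.3% of all genes. In CPEB4 RIP 8 of 9 were, against 45.4%, so the lower values in HD are not particular to CPEB1 RIP. In CPEB4 RIP, Camkk2 (-1.23) and Camk1d (-1.04) were 2-fold lower in HD, 2 of 9 against 11.6%.

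In input no CaM kinase was 2-fold lower in HD (4.43% of all genes were). Camk2a read 12.04 in the HD pool and 11.52 in the WT pool, Camk2b 9.93 and 10.35, and Camkk2 7.67 and 7.87. Camk4 was higher, with 8.38 in the HD pool and 6.45 in the WT pool, 1 of 9 against 11.3%. The second brightest Camk4 probe set, 1426167_PM_a_at, also read higher in the HD pool, with 8.20 against 6.56, more than 2-fold. Probe set 1439843_PM_at gave 7.95 and 7.72, a much smaller gap. The dimmest, 1441974_PM_at, gave 3.54 and 3.72, both below 4.23. The mean over the Camk4 probe sets was under 2-fold.

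Cell type markers also differed between the HD and WT pools. The median of the medium spiny neuron markers was lower in the HD pool than in the WT pool in every fraction. It was 8.69 against 10.09 in CPEB4 RIP and 7.84 against 10.41 in CPEB1 RIP. In IgG RIP it was 7.34 against 9.85, and in input 8.30 against 8.67. In input, Rgs9, Drd2 and Tac1 read higher in the HD pool, and Ppp1r1b, Drd1, Penk and Pde10a lower. The median CaM kinase difference of HD minus WT in input was 0.39, with 4 of 9 genes below 0. Of the 4 choroid plexus and ependyma markers, Ttr was higher in the HD pool, with 11.13 against 9.02 in CPEB4 RIP, 10.92 against 9.47 in CPEB1 RIP, 10.79 against 9.43 in IgG RIP and 10.49 against 6.60 in input. Ttr set the summed level of that list. The list's median was 4.43 against 4.06, 4.84 against 4.61, 5.03 against 4.97 and 4.94 against 4.95 in the same fractions. In the same order, the oligodendrocyte median was 9.31 against 8.25, 7.71 against 7.88, 6.19 against 9.14 and 8.5 against 7.95. The astrocyte median was 7.73 against 7.27, 5.32 against 6.97, 6.12 against 6.50 and 8.21 against 6.55. The 7 measured cortical excitatory markers summed to between 7.70 and 8.91 on all 8 arrays. In CPEB4 RIP the sum was 7.86 in the HD pool and 8.91 in the WT pool, with Slc17a7 at 4.86 and 8.09. The sum was 8.07 against 8.11 in CPEB1 RIP, 7.83 against 7.70 in IgG RIP and 8.07 against 8.22 in input. In pooled tissue, fewer cells of a type and less RNA per cell cannot be told apart between HD and WT. The part of these markers in the CaM kinase differences was not tested.

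**Figure D4:**
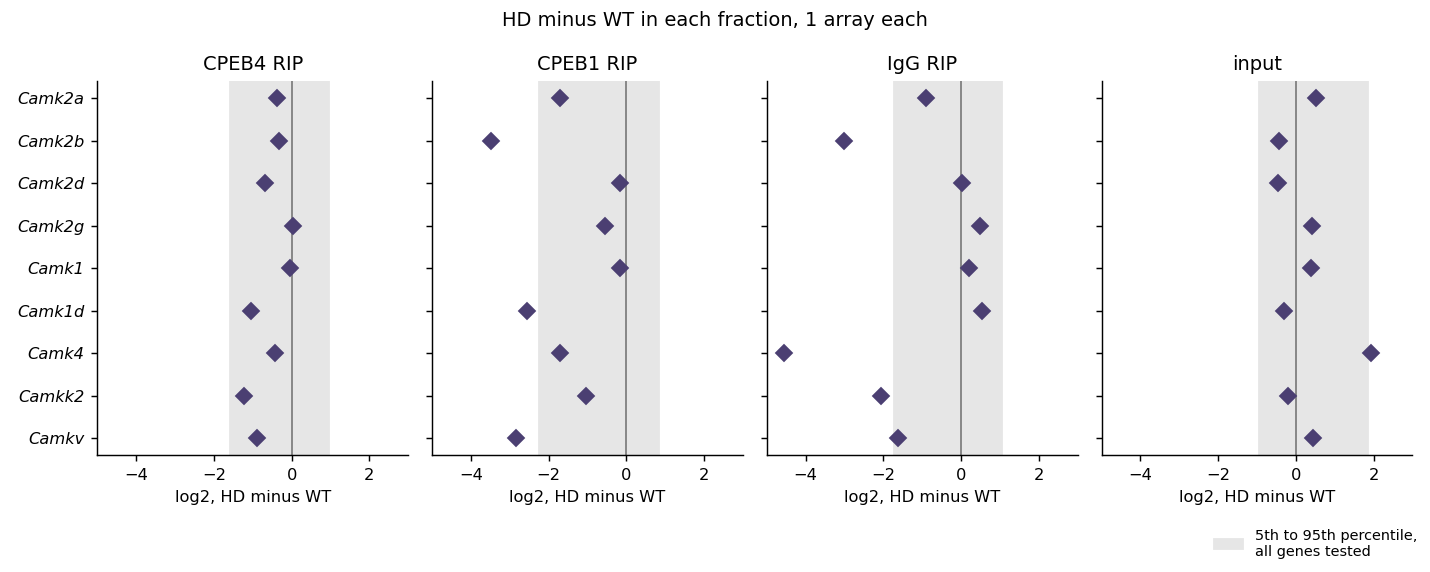
Log2 difference of HD minus WT (x axis) for the 9 measured CaM kinase genes (y axis) in CPEB4 RIP, CPEB1 RIP, IgG RIP and input, 1 array per genotype; the grey band spans the 5th to 95th percentile of all genes tested in that fraction. Camk2b and Camkv in CPEB1 RIP (-3.49 and -2.85) and Camk4 and Camk2b in IgG RIP (-4.56 and -3.01) lie furthest left of the band, Camk1d in CPEB1 RIP (-2.55) and Camkk2 in IgG RIP (-2.07) lie left of it too, and Camk4 in input (1.93) lies just right of it.

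Other genes of the calcium-calmodulin pathway were read from lists of 46 genes, of which 41 had a probe set and 36 were tested. In CPEB4 RIP against IgG RIP, 1 of the 36 was called higher (2.33% of all genes) and none lower, 14 were higher at an unadjusted p under 0.05 (15.7% of all genes), and the median difference was 1.03 (-0.065 over all genes). The 1 call was Ppp3r1, the regulatory subunit of calcineurin, the calcium-calmodulin-dependent phosphatase. In CPEB1 RIP none was called, 2 were higher at an unadjusted p under 0.05 (6.37% of all genes), and the median was 0.36 (0.093 over all genes).

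Ppp3r1 read 7.72 in the HD pool and 8.68 in the WT pool of CPEB4 RIP, 4.69 and 4.91 in CPEB1 RIP, 5.11 and 6.04 in IgG RIP, and 4.36 and 4.62 in input. Both CPEB4 arrays stood above all 6 others, by 2.63 ± 0.32 over IgG RIP (adjusted p = 0.0367), 3.71 ± 0.32 over input (adjusted p = 0.0353) and 3.40 ± 0.32 over CPEB1 RIP (adjusted p = 0.0555, by limma). Without any 1 of the CPEB4 or IgG arrays the adjusted p against IgG was between 0.148 and 0.212, and the call was also lost under quantile normalization (0.0919), with probe sets averaged per gene (1.63, 0.0983) and with the arrays of these fractions alone (0.0838). The call against input was lost under quantile normalization (0.0650), the 75th percentile filter (0.05001), with probe sets averaged per gene (0.0640), with the arrays of both fractions alone (0.0504) and without any 1 of the arrays compared (0.0752 to 0.239).

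All 7 listed calcineurin subunits and regulators were higher in CPEB4 RIP than in IgG RIP in both pools (33.8% of all genes were), with a median of 2.46, and 1 of 7 passed the test. The list was singled out after its values were seen. Cabin1, a calcineurin-binding protein that inhibits it, differed by 2.91 ± 0.58 (adjusted p = 0.0786), the catalytic subunit Ppp3ca by 2.56 ± 0.84 (adjusted p = 0.173), and Rcan1, a calcineurin inhibitor, by 2.13 ± 0.44 (adjusted p = 0.0795, all by limma). Against CPEB1 RIP the same 7 were also higher in CPEB4 RIP in both pools (25% of all genes were), and Ppp3ca had the widest gap, with 9.08 in the HD pool and 10.95 in the WT pool of CPEB4 RIP and 4.55 and 6.40 in CPEB1 RIP (4.54 ± 0.84, adjusted p = 0.116). Against CPEB1 RIP none of the 7 was called, and 1 was in 4 of 13 alternatives. The median over the list in CPEB1 RIP against IgG RIP was 0.37, with 2 of 7 higher in both pools (35.8% of all genes were).

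**Figure D5:**
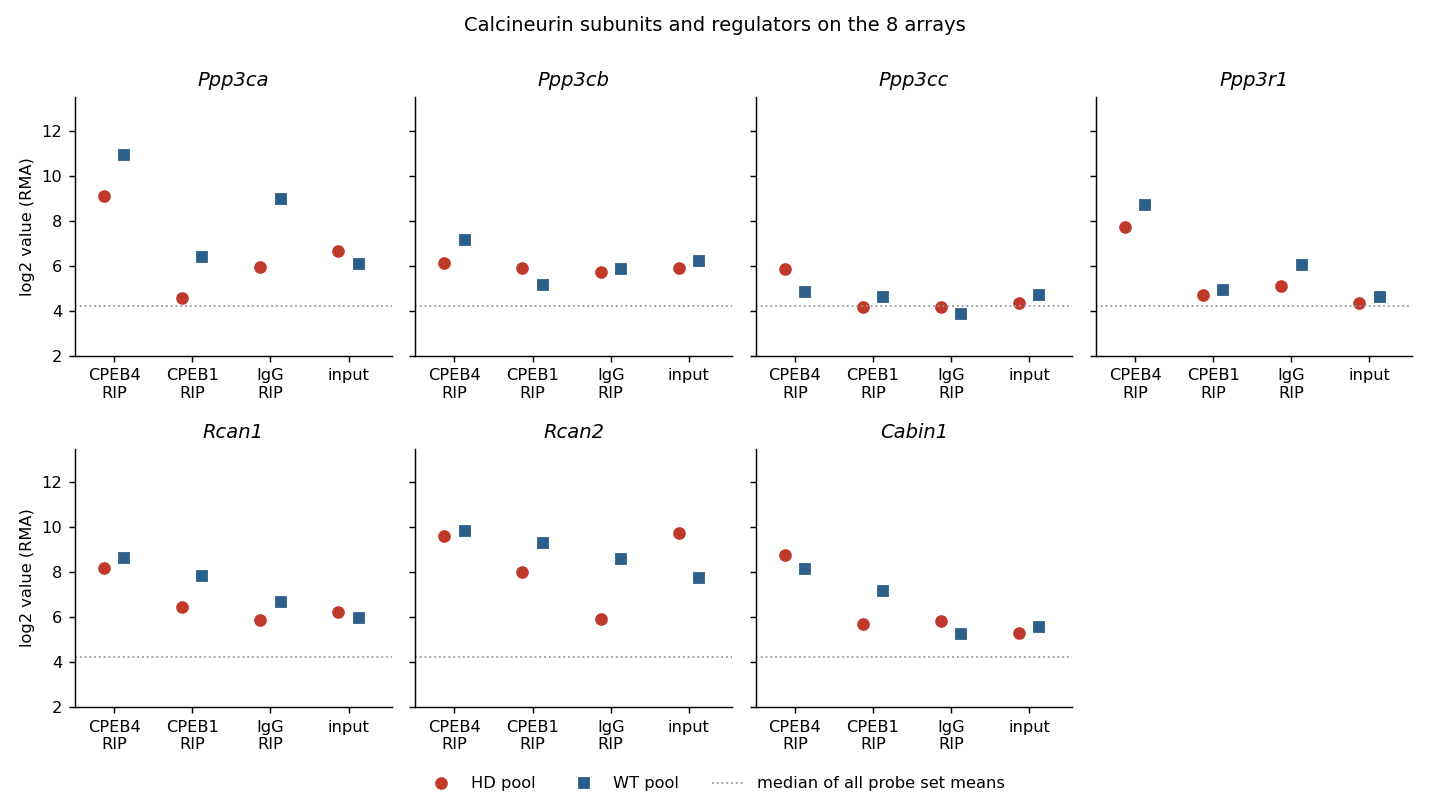
Log2 value (y axis) of the 7 calcineurin subunits and regulators in CPEB4 RIP, CPEB1 RIP, IgG RIP and input (x axis), with the HD pool as circles, the WT pool as squares and 1 array per point; the dotted line is the median of all probe set means, 4.23. Ppp3r1 reads 7.72 and 8.68 in CPEB4 RIP and at most 6.04 on the other 6 arrays.

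Among the other lists, the CaM kinase inhibitors and calmodulin-binding regulators had a CPEB4 median of 1.37 over 7 genes, with Caln1, which encodes the calmodulin-like calneuron 1, at 2.89 ± 1.10 (adjusted p = 0.209). Substrates and scaffolds of the CaM kinases had a median of 0.84 over 12 genes, other kinases of the superfamily 0.0070 over 8, and the 2 measured calmodulin genes 0.58, with no call in any of these lists. For CPEB1 RIP the largest differences in the pathway were those of Crtc1, a CREB coactivator, at 2.22 ± 0.75 (adjusted p = 0.584), and Hdac5, a histone deacetylase that CaM kinases phosphorylate, at 2.01 ± 0.53 (adjusted p = 0.414, both by limma). In CPEB4 RIP those genes stood at 2.17 ± 0.75 and 1.93 ± 0.53 over IgG, and CPEB4 RIP minus CPEB1 RIP was -0.049 ± 0.75 for Crtc1 and -0.083 ± 0.53 for Hdac5.

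The profiles of the members over the 8 arrays were alike to varying degrees. Pearson's r was 0.887 between Camk2g and Camk1, 0.834 between Camk2a and Camkk2 and 0.814 between Camk2g and Camk1d, and 0.118 between Camk2d and Camk1, the lowest of the 36 pairs. The genes most like Camk2a were Nsa2 (r = 0.972), Wbp2 (0.965), Impdh1 (0.965), Rap1gap (0.964) and Kcnab2 (0.960), 5 of the 14 genes of 11344 with r above 0.95. Those most like Camkv were Rab3c (0.977), Vapb (0.965), Pcp4l1 (0.961), Pcmt1 (0.954) and Mrps25 (0.951), all that had r above 0.95. The 8 arrays share pools and fractions, so these values describe likeness of profile over them and carry no test.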

How the data were processed

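RNA of 4 fractions (CPEB4 RIP, CPEB1 RIP, IgG RIP and input) from an HD and a WT pool of striatum was read on 8 Affymetrix arrays, 1 per fraction and genotype, after 27 cycles of amplification and with 8 µg of cDNA per array, per the labels' protocols. The authors deposited log2 values made with RMA, per the submitters' processing notes (version not given in the sources used here), and these entered the fits as deposited. Of 45101 probe sets, 28898 had 1 gene symbol in the platform annotation, 551 several and 15652 none; 28689 of the first were matched to the RefSeq gene table of GRCm38.p6. No coordinates are printed, since no build is named for the array. Each gene took its single-symbol probe set of highest mean, and genes above a mean of 4.23 were tested. The number of arrays limits the precision of every value.

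The test between fractions was limma's moderated test (limma 3.58.1, R 4.3.3; two-sided, Benjamini-Hochberg adjustment over all genes or probe sets tested), in a model of fraction plus genotype pool on 8 arrays. The residual degrees of freedom were 3, and those of the prior 2.29. The p-values therefore rest on how evenly all 4 fractions differ in both pools, and on a prior drawn from all genes tested. They do not measure only how well the pools agree in the comparison at hand. The scripts were tested on simulated data. HD against WT has 1 array a side and no test. The members, lists, tests and alternatives were chosen with earlier results of these data known. The text names the 10 CaM kinase genes, pathway genes past the test or among the 2 largest differences of each antibody from IgG, and the 5 genes most like Camk2a and Camkv; Ppp3ca, Rcan1 and the calcineurin list were singled out after their values were seen. Alternatives were cyclic loess, quantile normalization, median centring, other filters, averaging a gene's probe sets, no pool block, a trended and robust prior, a fit of the arrays of both fractions alone, leaving out each array, and fold thresholds of 1.5 and 3; those for Ppp3r1 and calcineurin were added after seeing the data.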

Additional observations from a re-analysis of the deposited data

Results flagged for a closer look

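In 20 of 54 pairs of a CaM kinase gene and a comparison of fractions, the HD pool and the WT pool had log2 differences of opposite sign. Each pool has 1 array per fraction, and the difference between the pools was not tested. Among all genes tested the pools disagreed in sign in 24.2% for CPEB4 RIP against IgG RIP, 42.6% for CPEB1 RIP against IgG RIP, 28.3% for CPEB4 RIP against CPEB1 RIP, 26.5% for CPEB4 RIP against input, 51.1% for CPEB1 RIP against input and 41.3% for IgG RIP against input. The share of 20 in 54 lies within the range of these shares, so opposite signs are not particular to the CaM kinases.

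For Camk4, CPEB4 RIP differed from IgG RIP by 3.82 in the HD pool and -0.32 in the WT pool, CPEB1 RIP from IgG RIP by 2.29 and -0.57, and IgG RIP from input by -1.97 and 4.51. All 3 comparisons use the IgG arrays, on which Camk4 read 6.41 in the HD pool and 10.97 in the WT pool. Camk1d had -1.10 in the HD pool and 1.99 in the WT pool for CPEB1 RIP against IgG RIP, and -1.72 and 0.51 against input. For Camkv the values were 0.59 in the HD pool and -1.37 in the WT pool for CPEB4 RIP against CPEB1 RIP, -0.40 and 2.89 for CPEB1 RIP against input, and -0.58 and 1.5 for IgG RIP against input.

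Among the Camk2 isoforms, Camk2a had 1.14 in the HD pool and -0.20 in the WT pool for CPEB4 RIP against CPEB1 RIP, -0.053 and 0.84 for CPEB4 RIP against input, and -1.19 and 1.03 for CPEB1 RIP against input. Camk2b had 2.70 in the HD pool and -0.45 in the WT pool for CPEB4 RIP against CPEB1 RIP. Camk2g had -0.039 in the HD pool and 0.99 in the WT pool for CPEB1 RIP against IgG RIP, and -0.59 and 0.36 against input. Camk2d was the dimmest of the measured genes on its best probe set. For CPEB4 RIP against IgG RIP, Camk2d had -0.037 in the HD pool and 0.68 in the WT pool. For CPEB1 RIP against IgG RIP it had -0.12 and 0.068. Against input it had 0.24 and -0.050 in CPEB1 RIP, and 0.36 and -0.12 in IgG RIP. Camk1 had small values of -0.035 in the HD pool and 0.39 in the WT pool for CPEB4 RIP against input, and -0.24 and 0.33 for CPEB1 RIP against input.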

How the results depend on the processing

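Of 696 log2 differences of CaM kinase genes under the alternatives, 639 kept their direction and their side of the threshold, 13 lost a call, 1 gained a call and 43 turned in direction, none of them past the threshold in either fit. The count of CaM kinase genes called in CPEB4 RIP against IgG RIP, 1 as reported, was 0 under cyclic loess, quantile normalization, median centring, no filter, the 75th percentile filter, no pool block, a trended and robust prior, a fit of the 4 arrays of both fractions alone, and 0 to 0 without each array in turn; with probe sets averaged per gene it was 1, Camk2g (2.0, adjusted p = 0.0467 by limma), in place of Camkk2. Among all genes, quantile normalization left 8 called higher and the fit of the 4 arrays alone left 0, against 264 as reported. Leaving out an array kept no call of any gene. The count of probe sets was 0, and 2 with probe sets above the median level. In the other comparisons of fractions no CaM kinase was called under any alternative. The reported fit pairs the fractions within each pool, with the pool as block, and the fit without that block gave Camkk2 an adjusted p of 0.104.

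Against IgG in CPEB4 RIP, cyclic loess turned Camk2a to -0.14 and Camkv to -0.53, quantile normalization Camkv to -0.66, and the mean of probe sets Camk2d to -0.11. For CPEB1 RIP, cyclic loess turned Camk2b to -0.043, median centring Camk2d to 0.017, and the mean of probe sets Camk1 to -0.0098 and Camk1d to -0.16. Between CPEB4 RIP and CPEB1 RIP, cyclic loess turned Camk2a to -0.18 and the mean of probe sets Camk2d to -0.011. Against input, cyclic loess turned Camk2a in CPEB4 RIP to -1.07, and the mean of probe sets Camk2a to 0.28 and Camk1 to -0.13 in CPEB1 RIP and Camk1d to 0.025 in IgG RIP.

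Leaving out each array in turn gave ranges across 0 for 22 differences. They were -0.50 to 4.0 for Camk4 in CPEB4 RIP against IgG RIP; in CPEB1 RIP against IgG RIP -0.48 to 1.76 for Camk2b, -0.26 to 0.21 for Camk2d, -0.69 to 1.59 for Camk1d, -1.39 to 3.10 for Camk4 and -0.29 to 1.86 for Camkv. Between CPEB4 RIP and CPEB1 RIP they were -0.25 to 1.20 for Camk2a, -0.046 to 0.31 for Camk1 and -1.47 to 0.69 for Camkv. For CPEB4 RIP against input they were -0.37 to 1.15 for Camk2a, -1.96 to 0.019 for Camk2b, -0.021 to 0.37 for Camk1 and -0.26 to 1.98 for Camkv. For CPEB1 RIP against input they were -0.84 to 0.68 for Camk2a, -0.010 to 0.21 for Camk2d, -0.54 to 0.32 for Camk2g, -0.15 to 0.24 for Camk1 and -1.75 to 0.53 for Camk1d. For IgG RIP against input they were -0.11 to 0.35 for Camk2d, -0.33 to 0.061 for Camk1, -0.98 to 3.52 for Camk4 and -0.65 to 1.58 for Camkv.

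The count of CaM kinases at 2-fold between HD and WT in CPEB4 RIP, 2 as reported, was 1 under cyclic loess, 1 under quantile normalization, 4 at 1.5-fold and 0 at 3-fold. In CPEB1 RIP, 6 as reported, it was 3 under cyclic loess, and in input, 1 as reported, it was 0 with the mean of probe sets. The median of the Camk2 genes minus that of the others, as the mean of the pools, was 0.46 for CPEB4 RIP and -0.23 for CPEB1 RIP against IgG; it became -0.23 for CPEB4 RIP under cyclic loess, and 0.12 for CPEB4 RIP and 0.37 for CPEB1 RIP with the mean of probe sets. For these changes the cause was not tested, except that a fit without an array has fewer arrays. Ppp3r1 in CPEB4 RIP against IgG RIP ran from 1.63 to 2.88, and the median of the calcineurin list from 1.58 to 2.62, above 0 in all 13 alternatives.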
